A study of Mus musculus with 7 samples.

Results

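The genes described here are 9 components of the Hippo pathway: the coactivators *Yap1* and *Wwtr1*, the 4 TEAD transcription factors *Tead1* to *Tead4*, the kinases *Lats1* and *Lats2*, and the angiomotin family member *Amotl2*. They were chosen by symbol, with earlier results of these data known, and are 9 of the 38124 genes in the count table. Neural progenitors and their progeny were sorted by FACS for high-level RFP fluorescence from E15.5 neocortex of the Tis21-CreERT2 mouse line. RNA-Seq was performed on 7 libraries of the sorted cells. Of these, 3 libraries came from neocortex electroporated with a control construct (Control replicates 1, 2 and 4) and 4 from neocortex electroporated with a conditional Sox9 expression construct (Sox9 replicates 1 to 4). Both groups carried the same Cre driver, received tamoxifen, were electroporated at E13.5, and were collected 48 hr later at the same age. The driver limits expression of either construct to apical progenitors that generate basal progenitors (BPs) and to their progeny, and according to the methods cortices of several embryos were pooled for a sort.

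In the Hippo pathway, the kinases MST1 and MST2 (*Stk4* and *Stk3*) activate LATS1 and LATS2, which phosphorylate YAP and its paralogue TAZ (encoded by *Wwtr1*) and so keep them out of the nucleus. Unphosphorylated YAP and TAZ enter the nucleus and act through TEAD proteins, which bind DNA while YAP and TAZ do not. Angiomotins hold YAP and TAZ in the cytoplasm or at cell junctions, and *Amotl2* and *Lats2* are themselves known as transcriptional targets of the pathway. In developing neocortex YAP is found in progenitors rather than in neurons and is known to promote proliferation, including that of BPs. The activity of YAP and TAZ is set largely by phosphorylation and location of the proteins, which mRNA counts do not measure.

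The libraries held 4429704 to 12907778 counts on genes. *Sox9*, the gene on the construct, did not rise with the Sox9 label. It had 34.6, 89.2 and 67.9 CPM (counts relative to library size, with TMM scaling from edgeR) in Control and 50.8, 41.1, 31.0 and 37.1 in the other group, with a log2 fold change of -0.68 (SE 0.25, adjusted p = 0.0493, edgeR's quasi-likelihood test). The group is therefore called Sox9-labelled, and each direction below follows the labels and was not checked by the targeted gene. Among the marker genes, and chosen after their values were seen, *Eomes* (Tbr2) lay at 25.2 to 44.5 CPM in Control and 6.14 to 9.75 CPM in Sox9-labelled libraries, and *Olig2* at 0 to 0.174 and 0.567 to 3.30 CPM. Neuronal genes were abundant in every library, with a summed 12468 to 16848 CPM for 7 neuronal markers. The 9 radial glia markers summed to 615 to 1164 CPM in Control and 299 to 441 CPM in Sox9-labelled libraries, and 5 of them were called lower (3.43% of all genes tested were called lower). For the 5 markers of intermediate progenitors the sums were 213 to 245 and 127 to 156 CPM, and 2 were called lower. In such bulk libraries, fewer cells of a type and less RNA per cell cannot be told apart.

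The edgeR quasi-likelihood test was run over the 16522 genes that passed its filter on low counts, and a gene was called at a Benjamini-Hochberg adjusted p under 0.01. Of the 9 genes, 8 passed the filter and *Tead4* did not. None of the 8 was called, where 14.7% of all genes tested were called (11.3% higher and 3.43% lower). DESeq2 called 1 of the 8, *Tead1*, where it called 19.5% of all genes. At an unadjusted p under 0.05, 3 of the 8 passed in edgeR, where 44.0% of all genes did. These were *Tead1* and *Amotl2*, which were higher, and *Tead2*, which was lower, and they were also the 3 with an adjusted p under 0.05, where 32.7% of all genes passed, 21.9% higher and 10.8% lower. The median log2 fold change of the 8 was 0.29, and that of all genes tested was -0.0031.

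**Figure D1:**
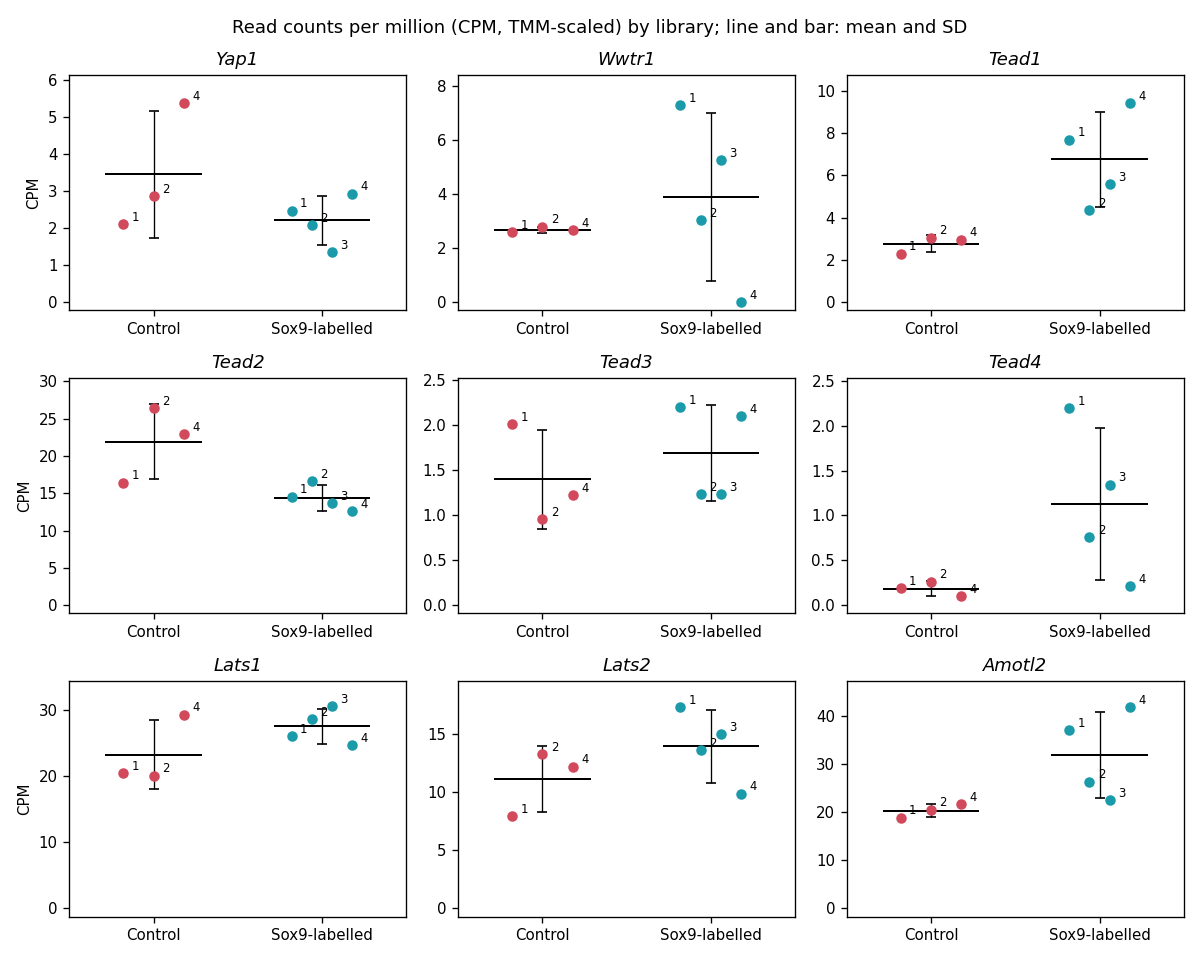
Level of each of the 9 genes (y axis, CPM, scale set per gene) in the 3 Control and 4 Sox9-labelled libraries, numbered by replicate, where horizontal lines are means and bars are SD. *Tead1* and *Amotl2* are higher in each Sox9-labelled library than in any Control library, and *Wwtr1* is at 0 in Sox9 replicate 4.

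Both coactivators were present at low levels. *Yap1* (chromosome 9, 7931999 to 8004596, reverse strand, GRCm38) had 2.10, 2.87 and 5.39 CPM in Control and 2.47, 2.08, 1.34 and 2.94 CPM in Sox9-labelled libraries. The groups overlapped, since Control replicate 4 was high and the other 2 Control libraries lay within the Sox9-labelled range. The means were 3.45 ± 1.72 (SD, n = 3) and 2.21 ± 0.675 CPM (SD, n = 4), and the log2 fold change of -0.67 (SE 0.43, 95% interval -1.58 to 0.24, adjusted p = 0.243) did not pass the test. It was -0.19 without Control replicate 4, -0.94 without Control replicate 1, and -1.30 with cyclic loess normalization and limma (adjusted p = 0.0455, range 0.0455 to 0.792 over all settings). *Yap1* rested on 12 to 53 counts per library. A short transcript on the opposite strand that overlaps its exons, *Gm20416*, had 0 to 5 counts.

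*Wwtr1* (chromosome 3, 57455649 to 57575910, reverse strand) encodes TAZ. It had 2.58, 2.78 and 2.64 CPM in Control and 7.28, 3.02, 5.25 and 0 CPM in Sox9-labelled libraries. Sox9-labelled replicates 1, 2 and 3 were above all Control libraries, whereas replicate 4, the library with the lowest depth, had 0 counts, which allows up to 0.629 CPM (3 counts). With this library, the log2 fold change was 0.58 (SE 0.63, 95% interval -0.76 to 1.92, adjusted p = 0.511), and without it 1.00 (adjusted p = 0.0752, range 0.0752 to 1.00 over all settings). Without Sox9 replicate 1, the highest library, it was 0.16. A normalization by cyclic loess gave -1.15 with all libraries. In Sox9 replicate 4 *Yap1* had 14 counts and *Tead1* had 45, and no other of the 9 genes was at 0 in any library.

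Within a library, the log2 ratio of *Yap1* to *Wwtr1* per exonic kilobase, after 1 count was added to both, was -1.24, -0.91 and 0.05 in Control. In Sox9-labelled libraries it was -2.46, -1.47, -2.84 and 2.95. Sox9-labelled replicates 1, 2 and 3 lay below all Control libraries and replicate 4 above them. The difference of -0.25 was smaller than the spread between replicates (exact permutation test, two-sided, p = 0.914, adjusted p = 0.914 over 3 ratios). Without replicate 4 it was -1.56.

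The log2 fold changes estimated for the 4 TEAD genes were not of 1 sign, and none of these genes was called in edgeR. *Tead2* (chromosome 7, 45215753 to 45233644, forward strand) is the TEAD gene of early embryos and neural progenitors. It had 16.4, 26.4 and 22.9 CPM in Control and 14.6, 16.6, 13.6 and 12.6 CPM in Sox9-labelled libraries. All Sox9-labelled libraries were below the Control mean, and the groups overlapped only where Sox9 replicate 2 was above Control replicate 1. The means were 21.9 ± 5.06 (SD, n = 3) and 14.4 ± 1.72 CPM (SD, n = 4), a log2 fold change of -0.60 (SE 0.20, 95% interval -1.04 to -0.17, adjusted p = 0.0356), which missed the threshold of 0.01. Control replicates 1, 2 and 4 had radial glia marker sums of 615, 1164 and 999 CPM, in the order of their *Tead2*. Sox9 replicates 1 to 4 had sums of 435, 441, 299 and 431 CPM. Of these, replicate 2 was highest in both, but replicate 4 had the least *Tead2* and replicate 3 the lowest sum. Sox9 replicate 2 had slightly more *Tead2* than Control replicate 1 at a lower sum. The part of radial glia in the *Tead2* level was not tested. Exons of *Tead2* overlap those of *Cd37* on the opposite strand, and the strand setting of the counting is not given in the sources used here. *Cd37* itself had 2 to 11 counts per library, where *Tead2* had 60 to 304.

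*Tead1* (chromosome 7, 112679318 to 112906807, forward strand) encodes a broadly expressed TEAD protein. It had 2.29, 3.04 and 2.95 CPM in Control and 7.69, 4.35, 5.59 and 9.44 CPM in Sox9-labelled libraries. The groups did not overlap, and the lowest Sox9-labelled library was above the highest Control library. Groups without overlap were found for 39.3% of all genes tested, with the Sox9-labelled libraries above for 22.9%, and for *Tead1* and *Amotl2* among the 8 genes. The means were 2.76 ± 0.408 (SD, n = 3) and 6.77 ± 2.25 CPM (SD, n = 4), with a log2 fold change of 1.26 (SE 0.35, 95% interval 0.52 to 2.01, adjusted p = 0.0140). *Tead1* lay close to the threshold. Its adjusted p was 0.00490 in DESeq2 and 0.00966 in edgeR without Sox9 replicate 2, and ranged from 0.00490 to 0.117 over all settings.

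*Tead3* (chromosome 17, 28331671 to 28350817, reverse strand), the TEAD gene known from placenta, had 2.01, 0.956 and 1.22 CPM in Control. In Sox9-labelled libraries it had 2.20, 1.23, 1.23 and 2.10 CPM, and the groups overlapped. The log2 fold change of 0.24 (SE 0.47, 95% interval -0.76 to 1.24, adjusted p = 0.725) turned to -0.84 with cyclic loess normalization. *Tead3* rested on 10 to 21 counts per library. Its log2 fold change lay between 0.03 (without Control replicate 2) and 0.58 (without Control replicate 1) when single libraries were left out.

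*Tead4* (chromosome 6, 128224288 to 128300823, reverse strand), which is needed for formation of the trophectoderm, had 2, 3 and 1 counts in Control and 16, 8, 12 and 1 counts in Sox9-labelled libraries. It was removed by the filter on low counts, so no call was made. Sox9-labelled replicates 1, 2 and 3 exceeded all Control libraries in CPM, and replicate 4, at 0.210 CPM, lay within the Control range of 0.102 to 0.261. Summed over libraries, 6 counts stood against 37, a ratio of 6.21 after scaling by library size. Its exact 95% interval of 2.60 to 18.0 covers counting error only and not the spread between libraries. A fit without the filter gave a log2 fold change of 2.45 (SE 0.80, adjusted p = 0.0146), and in that fit the median of all genes was 0.51. In the filtered fit, genes under 1 log2 CPM had a median of 1.55 and an upper quartile of 2.24.

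The share of each gene in the summed TEAD level, in counts per exonic kilobase, does not depend on the scaling of libraries. *Tead2* held 86.8, 92.6 and 91.8% in Control and 66.9, 83.0, 74.6 and 71.1% in Sox9-labelled libraries, and the groups did not overlap. *Tead1* held 4.27, 3.76 and 4.17% in Control and 12.5, 7.65, 10.8 and 18.8% in Sox9-labelled libraries, again without overlap. *Tead2* was thus the main TEAD transcript in each of the 7 libraries, and its share was smaller in the Sox9-labelled group. Shares do not remove the dependence of log2 fold changes on level described below. The median of all genes was 0.26 at the level of *Tead1*, 1.55 at that of *Tead3* and -0.14 at that of *Tead2*. No background was computed for such shares. The share of *Tead4* had a Control mean of 1.03% (SD 0.430, n = 3) and a Sox9-labelled mean of 7.45% (SD 5.22, n = 4), and that of *Tead3* was 4.48 ± 2.72% and 6.21 ± 1.95%. The log2 ratio of *Tead1* to *Tead2* had a Control mean of -4.47 (SD 0.14, n = 3) and a Sox9-labelled mean of -2.64 (SD 0.64, n = 4). The difference of 1.83 had p = 0.0571 (exact permutation test, two-sided, 35 splits, smallest possible p 0.0286), and an adjusted p of 0.171 over 3 ratios. It lay between 1.59 and 2.10 when single libraries were left out.

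**Figure D2:**
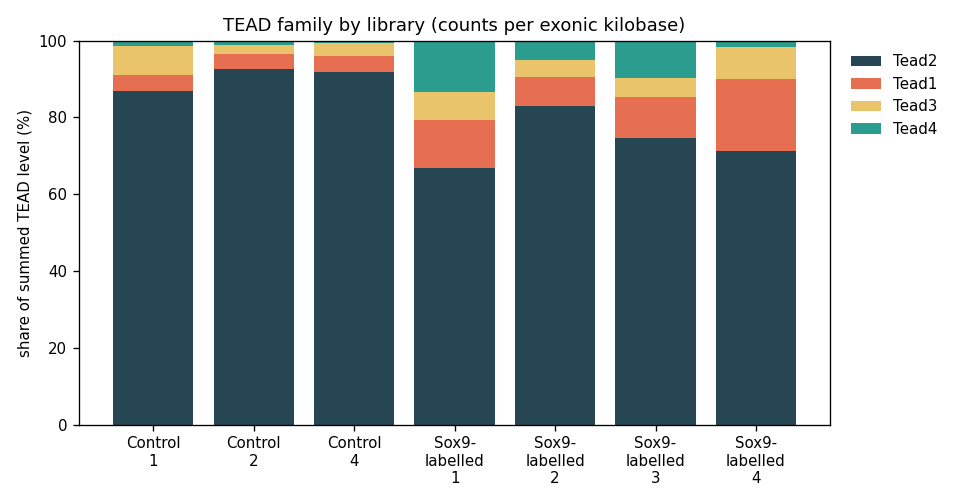
Share of each TEAD gene (y axis, percent of the summed counts per exonic kilobase of the 4 genes) in the 3 Control and 4 Sox9-labelled libraries (x axis). *Tead2* takes 86.8 to 92.6% of each Control bar and 66.9 to 83.0% of each Sox9-labelled bar.

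Neither LATS kinase passed the test. *Lats1* (chromosome 10, 7681214 to 7716460, forward strand) had 20.5, 20.1 and 29.3 CPM in Control and 26.1, 28.6, 30.6 and 24.7 CPM in Sox9-labelled libraries. Control replicate 4 lay among the Sox9-labelled libraries and the other 2 Control libraries below them. The log2 fold change was 0.25 (SE 0.18, 95% interval -0.14 to 0.64, adjusted p = 0.316). It was 0.46 without Control replicate 4 and 0.15 without either of the other Control libraries. *Lats2* (chromosome 14, 57689662 to 57758388, reverse strand) had 7.93, 13.3 and 12.2 CPM in Control and 17.3, 13.6, 15.0 and 9.86 CPM in Sox9-labelled libraries. Sox9 replicate 4 lay within the Control range, and the log2 fold change was 0.33 (SE 0.25, 95% interval -0.20 to 0.86, adjusted p = 0.326). It was 0.12 without Control replicate 1 and 0.51 without Sox9 replicate 4. Exons of *Lats2* overlap those of *Gm49361*, a protein-coding gene of the later annotation on the same strand that has no row of its own in the counts used here. Both 95% intervals lie within a log2 fold change of -1 to 1. *Lats1* held 66.6 ± 6.58% (SD, n = 3) of the summed LATS level per exonic kilobase in Control and 65.6 ± 4.82% (SD, n = 4) in Sox9-labelled libraries. The log2 ratio of *Lats2* to *Lats1* differed by 0.07 (exact permutation test, two-sided, p = 0.743, adjusted p = 0.914 over 3 ratios).

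*Amotl2* (chromosome 9, 102716672 to 102733418, forward strand) had 18.8, 20.5 and 21.6 CPM in Control and 36.9, 26.3, 22.5 and 41.7 CPM in Sox9-labelled libraries. The groups did not overlap, although Sox9 replicate 3 was close to Control replicate 4. The means were 20.3 ± 1.38 (SD, n = 3) and 31.9 ± 8.996 CPM (SD, n = 4), and the log2 fold change of 0.64 (SE 0.21, 95% interval 0.19 to 1.09, adjusted p = 0.0323) missed the threshold of 0.01. *Amotl1*, a relative that also binds YAP, had the opposite sign, with 54.0, 70.1 and 58.1 CPM in Control and 48.6, 46.7, 35.3 and 35.2 CPM in Sox9-labelled libraries. Its log2 fold change was -0.55 (adjusted p = 0.0187), and *Amot*, the founding member, had 0.02 (adjusted p = 0.964). The difference between the angiomotin genes was not tested.

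**Figure D3:**
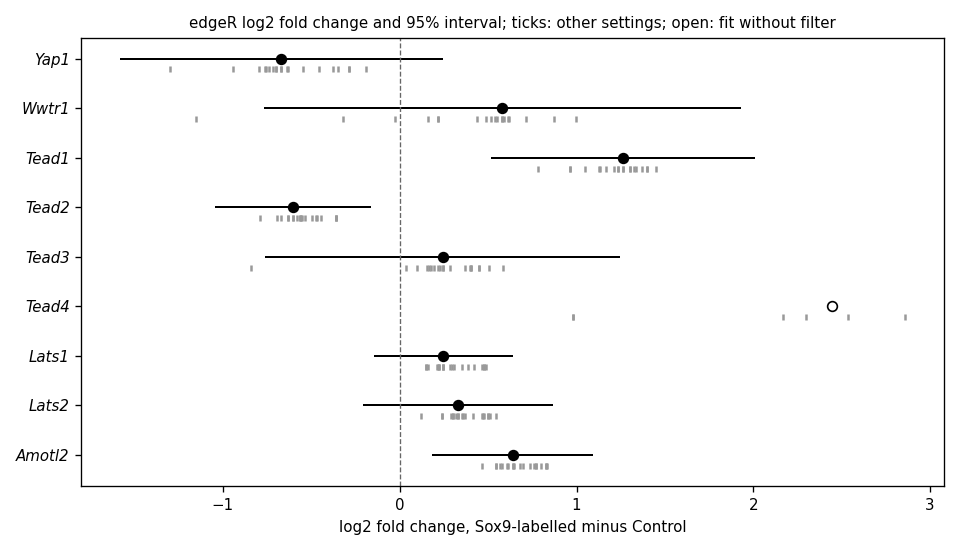
Log2 fold change of each gene (x axis, Sox9-labelled minus Control) from edgeR, with points for the estimate, lines for the 95% interval, grey ticks for the estimates under other settings, and an open circle for *Tead4* from the fit without filter. The intervals of *Tead1*, *Tead2* and *Amotl2* lie on 1 side of 0, and only *Wwtr1* and *Tead3* have ticks on both sides of 0.

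With CPM divided by exonic length in kilobases, a level comparable between genes, the order in Control was *Tead2* (4.58), *Amotl2* (3.23), *Lats1* (3.19), *Lats2* (1.60), *Wwtr1* (0.558), *Yap1* (0.373), *Tead3* (0.208), *Tead1* (0.204) and *Tead4* (0.0513). The ranges over libraries overlapped between *Amotl2* and *Lats1* and along the run from *Wwtr1* to *Tead1*, and not between the other neighbours. In Sox9-labelled libraries the order was *Amotl2* (5.07), *Lats1* (3.77), *Tead2* (3.00), *Lats2* (2.00), *Wwtr1* (0.814), *Tead1* (0.499), *Tead4* (0.313), *Tead3* (0.251) and *Yap1* (0.238). There, only *Tead2* and *Lats2* were neighbours without overlap. *Yap1* thus stood in the sixth place in Control and in the last place in Sox9-labelled libraries. Among 21173 protein-coding genes, the mean level of *Yap1* was at the percentile 45.4 in Control and 26.8 in Sox9-labelled libraries. The percentile was also lower in the Sox9-labelled group for *Tead3* (38.6 and 27.6), *Wwtr1* (49.4 and 46.3) and *Tead1* (38.4 and 37.8), whose mean levels were higher there.

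Log2 fold changes in these data depended on the level of a gene. Among genes with a mean level under 1 log2 CPM the median log2 fold change was 1.55, from 1 to 2 it was 1.08, from 2 to 3 it was 0.26, and above 6 it was -0.26. Set against genes of the same level, *Yap1* lay at the percentile 4.71 of log2 fold changes, *Tead2* at 8.46 and *Tead3* at 17.3. *Wwtr1* lay at 37.8 and *Tead1* at 77.9, whereas *Lats2* lay at 75.6, *Lats1* at 87.1 and *Amotl2* at 97.1. *Yap1*, *Wwtr1*, *Tead2* and *Tead3* thus had lower log2 fold changes than the median gene of their level, although those of *Wwtr1* and *Tead3* were above 0. By percentile, *Amotl2* stood highest and *Yap1* lowest of the 8. At low levels the genes compared include some, such as *Myof* below, that met the filter through the Sox9-labelled libraries. Such genes can raise the medians there. These percentiles are descriptions, and no test was made of them.

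**Figure D4:**
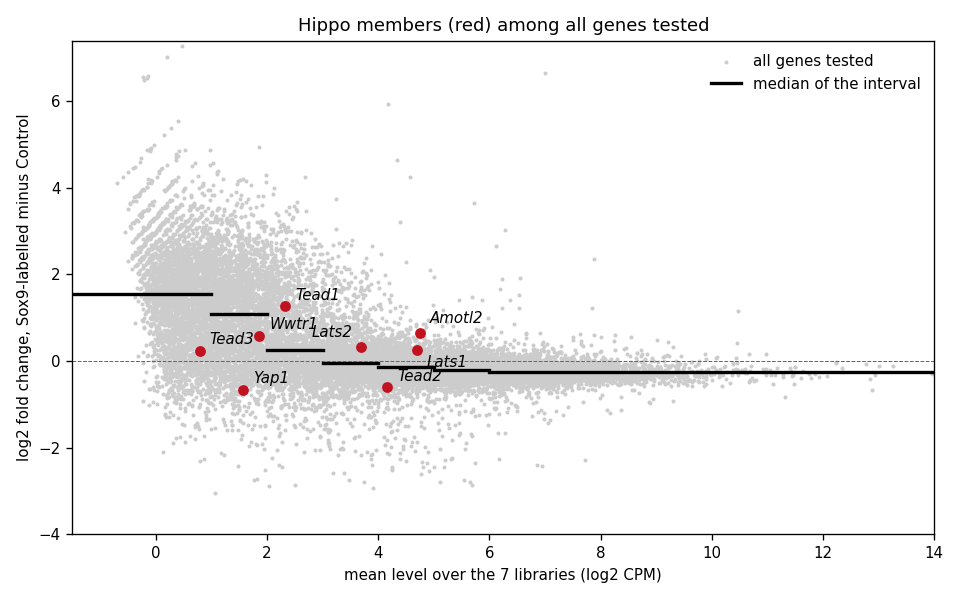
Log2 fold change (y axis, Sox9-labelled minus Control) against mean level over the 7 libraries (x axis, log2 CPM) for all 16522 genes tested (grey), with 8 of the 9 Hippo genes in red and black lines for the median of each interval of level. The median falls from 1.55 at the lowest levels to -0.26 at the highest, and *Yap1* lies far below the median of its interval, which is 1.08.

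Of 24 genes for MST kinases, their partners and upstream regulators, all passed the filter. *Wwc2*, a member of the KIBRA family of LATS activators, was called higher, none was called lower in edgeR (11.3% and 3.43% of all genes were), and the median log2 fold change was -0.10. At an unadjusted p under 0.05, 10 of the 24 passed (44.0% of all genes did), and DESeq2 called 2 higher and 1 lower (19.5% of all genes in either direction). *Wwc2* had 6.12, 2.78 and 6.31 CPM in Control and 13.7, 11.2, 15.2 and 13.0 CPM in Sox9-labelled libraries, without overlap, and a log2 fold change of 1.39 (SE 0.29, adjusted p = 0.00358). Its call was lost without Control replicate 2, without Sox9 replicate 3, with glmTreat, on deposited FPKM and with the replicate block by title. *Stk3*, the gene of MST2, had 21.3, 24.1 and 19.5 CPM in Control and 9.20, 12.9, 15.8 and 13.6 CPM in Sox9-labelled libraries, also without overlap. Its log2 fold change of -0.75 (SE 0.21, adjusted p = 0.0146) did not pass the threshold. Among the 5 smallest p-values, the kinase genes *Taok2* and *Map4k5*, which act upstream, had log2 fold changes of 0.61 and 0.68 (adjusted p = 0.0129 and 0.0220). *Stk38l*, the gene of a LATS-related kinase, had -0.47 (adjusted p = 0.0478).

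Of 15 genes for proteins that bind or restrain YAP, TAZ, TEAD or LATS, 12 passed the filter and none was called in edgeR (14.7% of all genes were). An unadjusted p under 0.05 was found for 5 of the 12 (44.0% of all genes), and DESeq2 called 1 lower (19.5% of all genes in either direction). The median log2 fold change was -0.19. After *Amotl1*, the smallest p-values belonged to genes of the STRIPAK phosphatase complex, which acts on MST kinases. These were *Fgfr1op2* (-0.40, adjusted p = 0.0474), *Strn4* (-0.38, adjusted p = 0.0495), *Slmap* (0.58, adjusted p = 0.0639) and *Strn* (-0.27, adjusted p = 0.102). The summed level of the 15 genes was 396 to 430 CPM in Control and 331 to 367 CPM in Sox9-labelled libraries, without overlap. A separation in this direction was found for 16.4% of single genes, and no such share was computed for sums of several genes. The median log2 fold change of all genes was -0.20 at 5 to 6 log2 CPM. *Vgll1*, *Vgll2* and *Vgll3*, whose products compete with YAP for TEAD, were removed by the filter.

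Of 20 genes widely used as transcriptional targets of YAP and TAZ, 17 passed the filter, 4 were called higher and 1 was called lower, with a median log2 fold change of 0.22. Of all genes tested, 11.3% were called higher and 3.43% lower, and of those at 1 to 2 and 2 to 3 log2 CPM, where *Myof* and *Ankrd1* lay, 25.6% and 19.1% were called higher. At 3 to 4 and 4 to 5 log2 CPM, where *Rbms3* and *Crim1* lay, the shares were 7.05% and 1.72%. The calls were thus made in both directions. *Ankrd1*, which encodes a cardiac ankyrin repeat protein, had 1.91, 0.869 and 2.03 CPM in Control and 7.97, 5.10, 7.38 and 6.50 CPM in Sox9-labelled libraries, a log2 fold change of 2.07 (SE 0.38, adjusted p = 0.00168). *Myof*, which encodes the membrane protein myoferlin, had 0.191, 0.434 and 1.02 CPM in Control and 2.06, 3.40, 3.02 and 3.15 CPM in the other group, with a log2 fold change of 2.40 (SE 0.53, adjusted p = 0.00495). Both were low in Control, with at most 20 and 10 counts per library, and neither overlapped between the groups. *Myof* met the filter through the Sox9-labelled libraries, where it was high, so that a gene with its Control level could be tested only if it differed.

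The other genes called higher were *Rbms3*, for an RNA-binding protein, and *Crim1*, for a membrane protein that binds BMPs. *Rbms3* had 3.73, 3.74 and 5.59 CPM in Control and 12.5, 9.73, 18.0 and 6.29 CPM in Sox9-labelled libraries (log2 fold change 1.43, SE 0.34, adjusted p = 0.00651). *Crim1* had 19.4, 17.0 and 22.0 CPM in Control and 36.8, 54.1, 31.7 and 26.0 CPM in Sox9-labelled libraries (log2 fold change 0.94, SE 0.22, adjusted p = 0.00687). The count of 4 fell to 1 or 2 when Control replicate 1 or 2 or Sox9 replicate 1, 2 or 3 was left out. It was 1 with cyclic loess, with glmTreat against a 1.5-fold change and with the replicate block by title, and on deposited FPKM no target was called in either direction.

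*Ccdc80*, for a secreted matrix protein, was called lower, with 39.7, 105 and 69.8 CPM in Control and 17.2, 27.2, 19.2 and 23.9 CPM in Sox9-labelled libraries. Its log2 fold change was -1.70 (SE 0.26, adjusted p = 0.000544), and every Sox9-labelled library lay below every Control library. Outside the rule for named genes and chosen after their values were seen, *Ccn1* and *Ccn2* are the targets most often read as a measure of YAP activity. *Ccn1* had a log2 fold change of -0.98 (adjusted p = 0.0189), at 11.8 to 34.4 CPM in Control and 10.3 to 14.1 CPM in Sox9-labelled libraries, which overlapped. *Ccn2* had 1 count over all 7 libraries. Leaving out Control replicate 1 or Sox9 replicate 4 raised the number called lower from 1 to 2.

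**Figure D5:**
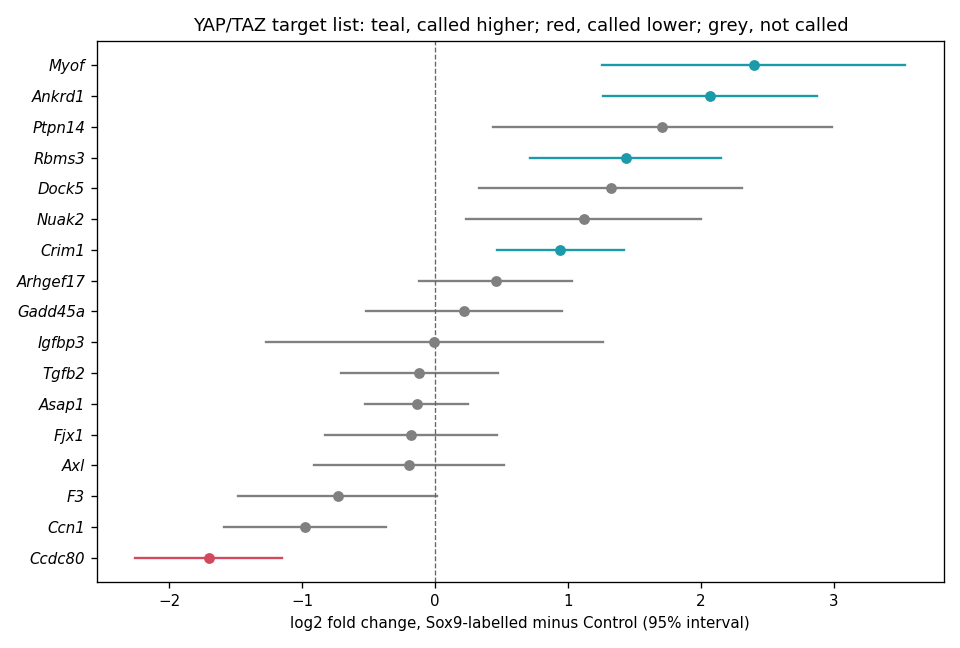
Log2 fold change (x axis, Sox9-labelled minus Control) with 95% interval of the 17 target genes tested, ordered by estimate, where teal marks genes called higher, red genes called lower and grey genes not called at an adjusted p under 0.01. *Myof*, *Ankrd1*, *Rbms3* and *Crim1* lie above 0, *Ccdc80* below it, and the other 12 were not called.

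Several of these genes are known from vascular and mesenchymal cells, and markers of other cell types were measured beside them. The sort for RFP, expressed after Cre acts in the neural lineage, is meant to leave out cells of blood and vessels. The summed level of 7 endothelial markers was 4.78 to 13.6 CPM in Control and 16.8 to 43.9 CPM in Sox9-labelled libraries. For 8 mural and meningeal markers the sums were 8.89 to 11.4 and 17.0 to 34.2 CPM. For 4 choroid plexus markers they were 0.956 to 1.424 and 8.79 to 13.3 CPM, and for 4 markers of oligodendrocyte precursors 0.305 to 0.782 and 6.04 to 16.8 CPM. All 4 of these sums were higher in Sox9-labelled libraries without overlap. Of single genes tested 22.9% were, and no such share was computed for sums. Most of these markers are low, and at under 1 and at 1 to 2 log2 CPM 87.6% and 78.1% of all genes had a positive log2 fold change. The sums of 6 microglia markers (9.65 to 33.6 and 12.4 to 58.6 CPM) and of 5 erythroid markers (1.82 to 19.4 and 10.9 to 58.7 CPM) overlapped. No marker was at 0 in all 7 libraries. The 4 sums did not order the Sox9-labelled libraries alike. In replicates 1 to 4 the endothelial sums were 25.8, 22.5, 43.9 and 16.8 CPM, and the mural and meningeal sums 34.2, 17.0, 28.2 and 27.9 CPM. Choroid plexus sums were 13.3, 8.79, 8.94 and 11.5 CPM, and those of oligodendrocyte precursors 16.8, 7.37, 6.04 and 11.5 CPM. In the same order *Tead1* had 7.69, 4.35, 5.59 and 9.44 CPM, and *Wwtr1* had 7.28, 3.02, 5.25 and 0 CPM. The part of these cell types in the levels of the Hippo genes and targets was not tested.

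For the TEAD recognition sequence GGAATG, promoter windows from 250 bases before to 50 bases after the start site were searched on both strands (RefSeq, GRCm38.p6). The motif was chosen with the values above known. It was present in 14.7% of all 32851 windows, in 7 of 11 windows of the 7 Hippo genes with a window, and in 5 of 14 windows of the 13 targets with one. Windows of a gene can overlap, and the 2 windows of *Wwtr1* hold the same match. By gene, 5 of 7 Hippo genes and 5 of 13 targets had a match, where 4481 of 27025 genes did. *Tead2* and *Lats1* had no match in their windows, and *Tead1* and *Tead4* had no window. The 30 bases around each match are shown 5′ to 3′ in the direction of the gene for *Yap1*, *Wwtr1* and *Amotl2* and for the targets *Ccn1*, *Ankrd1* and *Crim1*, since these genes include both signs of log2 fold change. Capitals mark the motif or its reverse complement CATTCC.
Yap1, chr9:8004720-8004749, reverse strand: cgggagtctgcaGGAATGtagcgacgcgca
Wwtr1, chr3:57576029-57576058, reverse strand: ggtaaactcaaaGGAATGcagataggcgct
Amotl2, chr9:102717727-102717756, forward strand: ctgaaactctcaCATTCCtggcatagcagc
Ccn1, chr3:145650071-145650100, reverse strand: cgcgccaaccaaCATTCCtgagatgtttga
Ankrd1, chr19:36120037-36120066, reverse strand: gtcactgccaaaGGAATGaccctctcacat
Ankrd1, chr19:36119950-36119979, reverse strand: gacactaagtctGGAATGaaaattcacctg
Crim1, chr17:78200157-78200186, forward strand: agggcgggggggGGAATGaggtaggatggg
*Ankrd1* held the motif in 2 places of its window, at positions -210 and -123 from the start site. Of the 4 targets called higher, *Myof* and *Rbms3* had no match in their windows. A match describes the letters of a window, and binding was not measured.

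By likeness of profile, the genes nearest to *Yap1* and *Tead2* were found among 4956 protein-coding genes with a mean of at least 5 log2 CPM. Likeness was the root-mean-square difference of log2 CPM over the 7 libraries, each gene centred on its own mean. For *Tead2* these were *Dkc1* (0.0633), *Mthfd2* (0.0671), *Gpbp1l1* (0.0935), *Calu* (0.104) and *Fubp3* (0.104), where the median over the pool was 0.313. For *Yap1*, with fewer counts, they were *Rps27l* (0.218), *Cnep1r1* (0.258), *B9d2* (0.264), *Mrpl14* (0.267) and *Rbm26* (0.281), where the median was 0.510.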

How the data were processed

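The authors combined lanes, trimmed adapters with cutadapt, and aligned reads to mm10 (GRCm38) with STAR, version 2.5.2b in the submitters' processing notes. They deposited raw counts per Ensembl gene and FPKM values. For 8 of the 9 genes the deposited FPKM followed the whole gene span rather than the exonic length, and for *Lats2* neither, so levels per exonic kilobase were computed from the counts with GENCODE lengths. The counting program and its strand setting are not given in the sources used here.

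The test of counts used edgeR 4.0.16 under R 4.3.3 (TMM, filterByExpr, two-sided quasi-likelihood test, no covariate), with adjustment over all genes tested, after a check on simulated data. DESeq2 1.42.0 and limma 3.58.1 served for alternatives, and Python 3.11.15 with pandas 2.3.3 for summaries. *Wwtr1* had 0 counts in 1 library, so 1 count was added to both genes of its ratio, which departs from the planned test. Intervals of summed counts cover counting error only. Libraries are biological replicates per the labels. Replicate numbers follow the titles, and Control replicate 4 is numbered 3 in its description. The 9 genes, the lists and the markers were chosen with earlier results of these data known. Beside the 9 genes, named genes were the 5 of each list with the smallest p and the 5 nearest profiles. *Eomes*, *Olig2*, *Amot*, *Ccn1*, *Ccn2*, *Vgll1* to *Vgll3*, *Cd37* and *Gm20416* were named outside this rule, after their values were seen.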

Additional observations from a re-analysis of the deposited data

How the results depend on the processing

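Of 165 results of single Hippo genes under other settings, 156 kept their direction and their side of the threshold, and 4 turned direction. These include the main fit read at 0.05 and glmTreat. Both have the log2 fold changes of the main fit and could not turn direction. Another 5 passed the threshold of their setting, 3 of them because it was 0.05. No call could be lost, since none of the genes was called. *Wwtr1* was -1.15 with cyclic loess, -0.32 on deposited FPKM with a pseudocount of 0.001 and -0.027 with the replicate block by title, and *Tead3* was -0.84 with cyclic loess. The cause was not tested. Calls of the 9 genes were 1 higher with DESeq2, 2 higher and 1 lower at an adjusted p under 0.05, and 0 to 1 higher and 0 lower when single libraries were left out. Kinase and upstream calls, 1 higher and 0 lower in the report, were 2 higher and 1 lower with DESeq2, 2 higher with cyclic loess, 4 lower with no filter, 2 higher with at least 10 counts in every library, 3 higher and 2 lower at an adjusted p under 0.05, 0 higher with glmTreat against a 1.5-fold change, on FPKM (pseudocount 0.01, with or without filter, or 0.001) and with the replicate block by title, and 0 to 1 higher with single libraries left out. Cofactor calls, 0 in the report, were 1 lower with DESeq2, 1 lower with no filter and 3 lower at an adjusted p under 0.05. Target calls, 4 higher and 1 lower in the report, were 4 higher and 2 lower with DESeq2, 5 higher and 2 lower with no filter, 6 higher and 2 lower at an adjusted p under 0.05, 1 higher with cyclic loess, glmTreat and the replicate block by title, 0 higher and 0 lower on FPKM under the 3 settings, and 1 to 4 higher and 1 to 2 lower with single libraries left out.

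The log2 ratio of *Yap1* to *Wwtr1* ranged from -1.56 to 0.37 without single libraries, and that of *Lats2* to *Lats1* from -0.08 to 0.31. The median of all genes was 0.51 with no filter and 0.42 to 0.52 on FPKM, against which changes there should be read. Libraries with the same number by title had correlations of their deviations of -0.0356, 0.118 and -0.00485. Control replicate 4 and Sox9 replicate 3, which share a number by description, had 0.0170. So few libraries cannot decide whether the numbers pair the samples. With the replicate block by title *Tead1* was 1.30 (adjusted p = 0.0406, edgeR), *Tead2* -0.57 (0.0863) and *Amotl2* 0.76 (0.0271). With the replicate block by description they were 1.05 (0.0513), -0.53 (0.0757) and 0.46 (0.115), and no Hippo gene was called in either fit. Counts were few for *Yap1*, *Wwtr1*, *Tead1*, *Tead3* and *Tead4*, with at most 56 in a library.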
